A study of Mus musculus with 5 samples.

Results

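The insulin-like growth factor (IGF) genes described here are the ligands Igf1 and Igf2, the receptors Igf1r and Igf2r, and the binding proteins Igfbp2, Igfbp3, Igfbp4, Igfbp5, Igfbp6 and Igfbp7. They were taken by gene symbol from the tables of expressed genes, and all 10 were listed in at least 1 library, among 14156 genes with a symbol. Of the 10, 7 had enough reads to be tested among 3710 genes. RNA came from cells labelled as bone mesenchymal stem cells, the adherent stromal cells of marrow that can form bone, cartilage and fat. There were 3 libraries of Bmal1-knockout cells (Bmal1-/-, knockout 1, 2 and 3) and 2 of wild type cells (wild type 1 and 2). In both genotypes the cells came from the femur marrow of C57BL/6 mice aged 6 to 8 weeks and were at passages 1 to 3, grown in α-MEM with 12% fetal bovine serum. Which part of Bmal1 was removed, in which cells of the mouse, and how many mice gave cells, is not stated in any source used, so p-values measure the spread between these libraries, which may be technical. BMAL1, whose gene symbol is Arntl, acts with CLOCK as the activator of the circadian clock, and the comparison asks which genes depend on it in these cells.

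IGF1 and IGF2 are secreted hormones that stimulate growth and survival through the IGF1 receptor, a tyrosine kinase that acts through insulin receptor substrates, PI3K and AKT. Binding proteins hold most IGF outside cells, where they extend its life and keep it from the receptor until proteases cut them. In bone, stromal cells and osteoblasts make IGF1 and several binding proteins, and serum in the culture medium brings IGF protein that RNA does not show. IGFBP7 binds IGF only weakly and is also known as a matrix and vessel protein.

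Expected counts summed to 226695, 237088 and 281990 in knockout 1, 2 and 3, against 243072 and 211623 in wild type 1 and 2, and on the scale of the tested genes 1 read was worth 4.05 to 5.31 counts per 1e6 (CPM). Levels between genes are compared as deposited FPKM (fragments per kilobase of gene and per 1e6 fragments), and changes as edgeR log2 fold changes of knockout over wild type with Benjamini-Hochberg adjustment over all tested genes. Arntl itself had too few reads to check the labels, with 4, 1 and 2 in knockout libraries, against 5 and 0 in wild type libraries. All 16 listed stromal markers were detected, led by the collagen gene Col3a1. Their sum was 10670 to 11330 CPM in the knockout and 4219 to 4252 CPM in the wild type libraries. All 16 macrophage markers were also detected, led by Lyz2, at 10110 to 11160 CPM in the knockout and 16440 to 17220 CPM in the wild type libraries. The cultures labelled as mesenchymal stem cells thus also held RNA of macrophage marker genes, at a lower summed level in the knockout. The macrophage sum was far above the stromal sum in both wild type libraries and slightly below it in each knockout library. Sums over different genes do not give shares of cells. In RNA from a whole culture, fewer cells of a type and less RNA per cell cannot be told apart.

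Of the 7 tested members, 3 were higher in the knockout at an adjusted p under 0.05, and all were binding proteins: Igfbp7, Igfbp5 and Igfbp4. Among all 3710 tested genes, 8.19% were higher in the knockout by the same rule and 8.14% were lower. No member was lower by edgeR or by DESeq2 at an adjusted p under 0.05, and 0 were lower at an unadjusted p under 0.05 by either. Igfbp3, the main IGF carrier of blood, had the opposite sign to the other tested binding proteins. In FPKM, 5 of the 7 lay above the wild type range in every knockout library (19.6% of all tested genes did), 1 lay below it (22.8% did) and Igf2r overlapped.

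**Figure D1:**
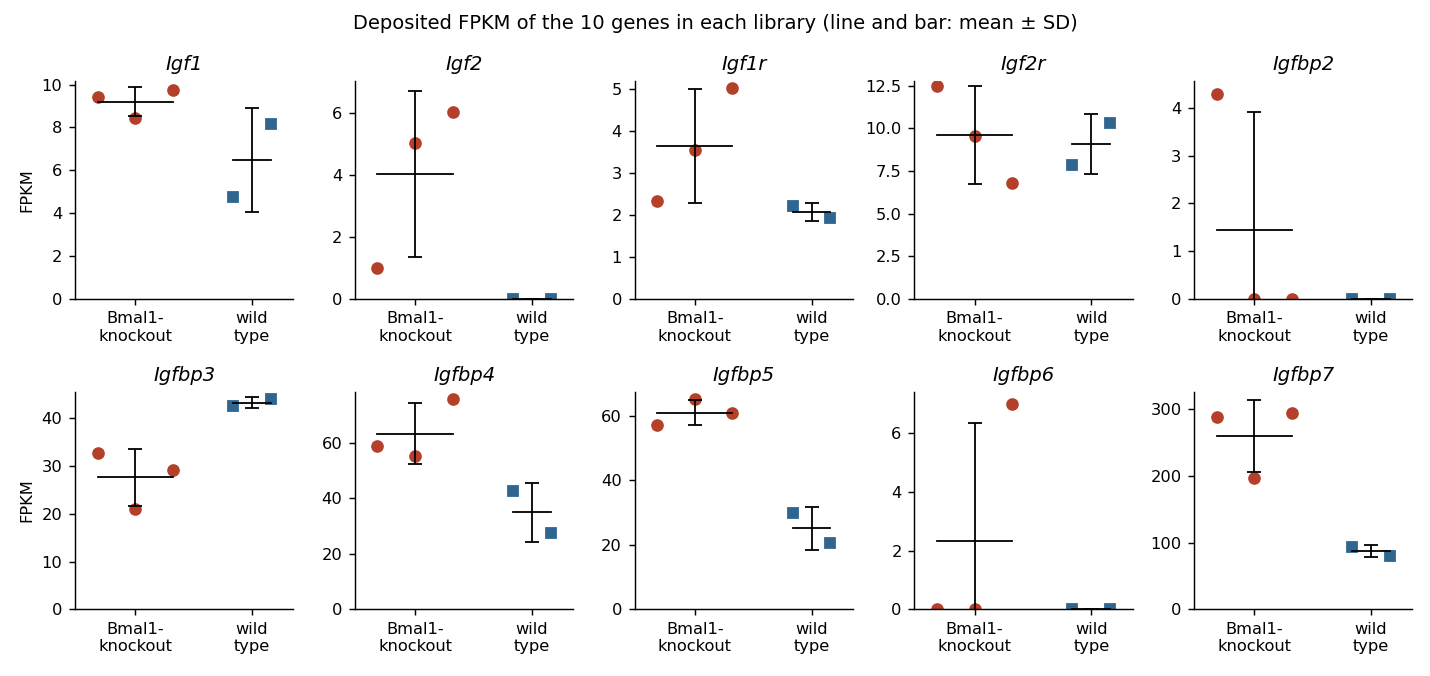
FPKM (vertical axis, from 0) of each member in the 3 Bmal1-knockout libraries (circles) and the 2 wild type libraries (squares), with the mean as a line and the SD as a bar. Igfbp4, Igfbp5 and Igfbp7 have every knockout library above both wild type libraries, Igfbp3 has every knockout library below them, and Igf2 is at 0 in both wild type libraries.

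Igfbp7 (Entrez gene 29817, chromosome 5, 77349240 to 77408045, mm10) was the most abundant member in both genotypes and had the largest fold change of the 7. It stood at 288, 197 and 295 FPKM in the knockout libraries, against 93.4 and 80.6 FPKM in the wild type libraries. All 3 knockout libraries were above both wild type libraries, and knockout 2 was the low one of its group. The log2 fold change was 1.61 (SE 0.24, adjusted p = 1.64e-09), a 3.06-fold rise, and in counts the gene had 250 knockout reads and 49 wild type reads. The call held in all 14 alternatives, with log2 fold changes of 1.48 to 1.77.

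The neighbour of Igfbp7, Polr2b, which encodes a large subunit of RNA polymerase II, lies tail to tail with it on the opposite strand (chromosome 5, 77310484 to 77349328), and 85 bases of the Igfbp7 exons lie opposite Polr2b exons in GENCODE M21. Polr2b, chosen after its values were seen, had 956, 1193 and 1105 CPM in the knockout libraries, against 329 and 356 CPM in the wild type libraries. Its log2 fold change of 1.66 (SE 0.16, adjusted p = 7.06e-24) was close to that of Igfbp7. Polr2a, the largest subunit of the same enzyme, was at 72.1, 28.5 and 93.1 CPM in the knockout libraries, against 75.2 and 63.8 CPM in the wild type libraries, and did not pass (log2 fold change -0.09, adjusted p = 0.916). The deposited tables give Polr2b an added transcript with no RefSeq name. No source used here says whether the libraries kept strand, so the overlapping ends of the pair cannot be told apart, and the part of this in either gene's rise was not tested.

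**Figure D2:**
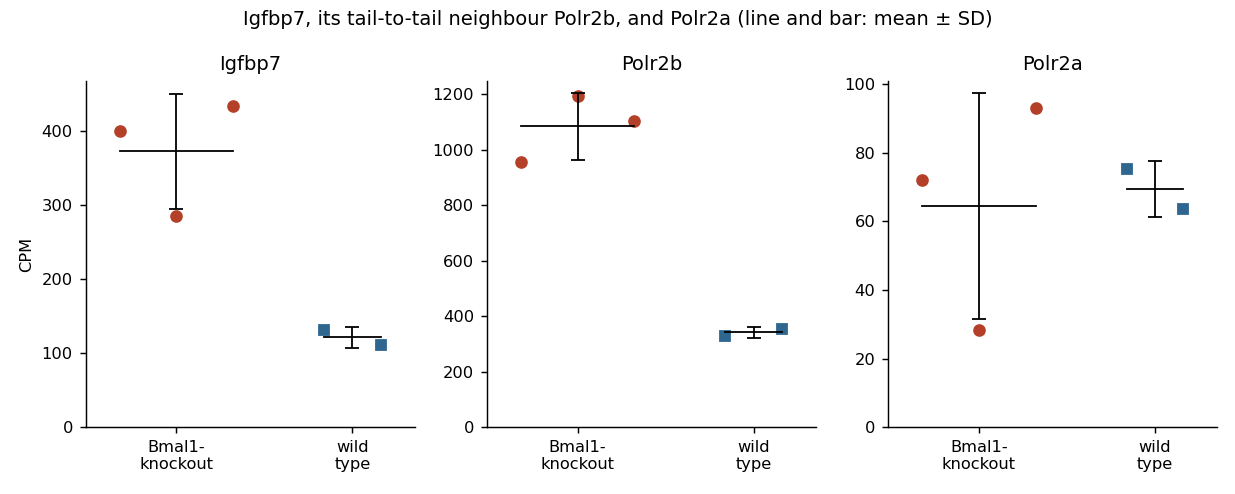
CPM (vertical axis, from 0, a different scale in each panel) of Igfbp7, its tail-to-tail neighbour Polr2b and the polymerase subunit gene Polr2a in the 3 Bmal1-knockout libraries (circles) and the 2 wild type libraries (squares), with mean and SD. The knockout libraries lie above the wild type libraries for Igfbp7 and Polr2b, and the groups overlap for Polr2a.

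Igfbp5 (Entrez gene 16011, chromosome 1, 72858065 to 72874865) encodes the binding protein most abundant in bone matrix, which can bind to that matrix and hold IGF there. Its level was 57.2, 65.2 and 60.8 FPKM in the knockout libraries, against 29.9 and 20.5 FPKM in the wild type libraries. The knockout libraries lay within a narrow range, above both wild type libraries. The log2 fold change was 1.30 (SE 0.20, adjusted p = 2.85e-09), a 2.45-fold rise with 338 knockout and 83 wild type reads, and the call held with each library left out (1.05 to 1.60). Igfbp2, its neighbour 5590 bases away on the same chromosome, had 1 read in all, in knockout 1.

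Igfbp4 (Entrez gene 16010, chromosome 11, 99040005 to 99052655) encodes a binding protein that mostly restrains IGF until it is cleaved. It had 58.7, 55.3 and 75.8 FPKM in the knockout libraries, against 42.5 and 27.4 FPKM in the wild type libraries. The groups did not overlap, and wild type 1 was the nearer of the wild type libraries to the knockout range. Its log2 fold change was 0.88 (SE 0.30, adjusted p = 0.0252), from 120 knockout and 39 wild type reads. The call was lost without knockout 3 (0.70, adjusted p = 0.175), without wild type 1 (1.25, adjusted p = 0.0527) and without wild type 2 (0.60, adjusted p = 0.411). DESeq2 did not call it (0.88, adjusted p = 0.152), nor did edgeR with a block for replicate numbers (0.71, adjusted p = 0.170). Over all alternatives its adjusted p ranged from 0.0158 to 0.411.

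Igfbp3 (Entrez gene 16009, chromosome 11, 7206086 to 7215498) had 32.6, 20.9 and 29.2 FPKM in the knockout libraries, against 42.5 and 44.0 FPKM in the wild type libraries. Every knockout library was below both wild type libraries. The difference did not pass the test (log2 -0.61, SE 0.32, adjusted p = 0.192), with 62 knockout and 57 wild type reads. Igfbp6, which prefers IGF2 over IGF1 as its ligand, had 3 reads, all in knockout 3, and with Igfbp2 it was too low to test or to give a fold. Both were at 0 in the 2 wild type libraries, where a count of 0 allows a level of up to 14.1 and 15.9 CPM (3 counts of the library, counting error only).

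**Figure D3:**
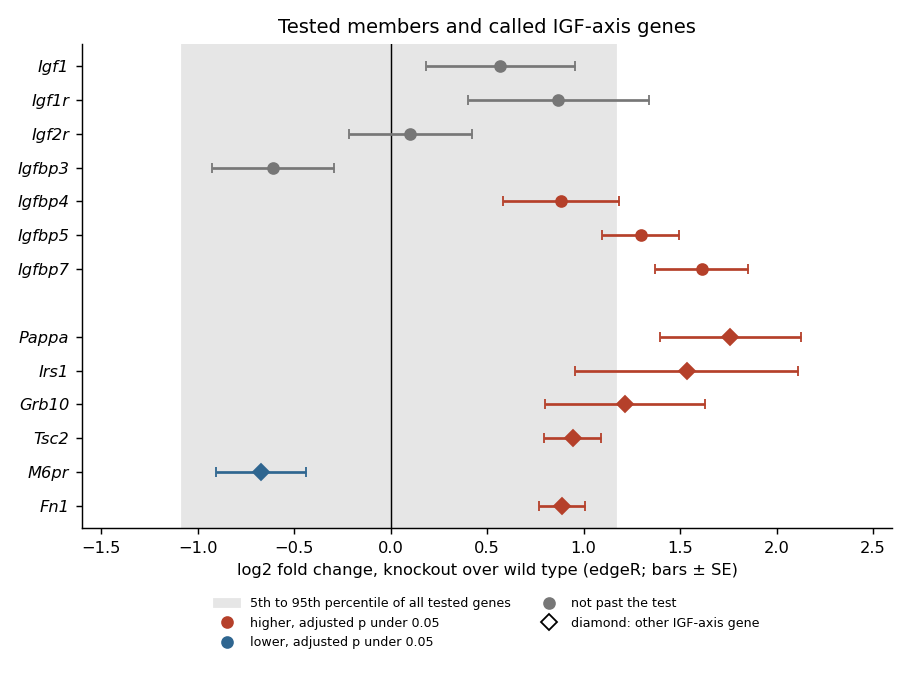
Log2 fold change of knockout over wild type (horizontal axis, edgeR, bars ± SE) for the 7 tested members (circles) and for the 6 other IGF-axis genes past the test (diamonds), with the range from the 5th to the 95th percentile of all tested genes in grey. Igfbp5 and Igfbp7 lie beyond the upper end of that range at 1.17, and Igfbp4 lies inside it.

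The stretches just upstream of the transcript starts of the 4 tested binding protein genes are shown because these genes did not share a direction. They are RefSeq sequences of GRCm38.p6 (mm10), each ending at or near a start in that promoter table. The starts of Igfbp3 and Igfbp4 lie inside the gene spans given above, which reach further upstream, and both are also transcript starts in GENCODE M21. The stretches before the outer ends of these 2 spans were not searched. The capitals in Igfbp4 mark TATAAA, the letters of a TATA box, on the gene's own strand.
Igfbp7 (chr5:77408046-77408145, minus strand): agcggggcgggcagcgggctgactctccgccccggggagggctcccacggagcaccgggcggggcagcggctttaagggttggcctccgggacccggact
Igfbp5 (chr1:72874885-72874984, minus strand): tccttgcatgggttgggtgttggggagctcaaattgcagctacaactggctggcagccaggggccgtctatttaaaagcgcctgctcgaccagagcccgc
Igfbp4 (chr11:99041144-99041243, plus strand): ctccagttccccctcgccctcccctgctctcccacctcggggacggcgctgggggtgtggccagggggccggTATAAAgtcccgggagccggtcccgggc
Igfbp3 (chr11:7213924-7214023, minus strand): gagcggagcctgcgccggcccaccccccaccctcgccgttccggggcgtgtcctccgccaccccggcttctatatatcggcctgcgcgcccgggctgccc
The stretch of Igfbp5 was 59.0% G and C, below the 75.0% to 77.0% of the other 3. In the 250 bases before each annotated start, the E-box CACGTG, the letters that BMAL1 and CLOCK bind, was searched on both strands, which read the same. It was found in 0 of the windows of Igfbp3, Igfbp4, Igfbp5 and Igfbp7, in 8.74% of the windows of tested genes and in 6.02% of 32851 such windows of the genome. The windows of genes higher in the knockout held it in 6.04% of cases and those of genes lower in the knockout in 5.94%. The related CACGTT, also searched on both strands, was in 0 of the 14 windows of the 10 members, in 4.44% of those of tested genes and in 3.85% of all. TATAAA, searched on the gene's own strand, was in 1 of the 14 windows, in 4.36% of those of tested genes and in 7.59% of all. A match is a description of letters and not a bound site, and the lack of one speaks only of these windows.

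Summed over Igfbp2 to Igfbp7, the binding proteins reached 441, 339 and 467 FPKM in the knockout libraries, against 208 and 172.5 FPKM in the wild type libraries. The group values were 416 ± 68.0 FPKM (SD, n = 3) in the knockout and 190 ± 25.2 FPKM (n = 2) in the wild type, a ratio of 2.18. Without Igfbp7 the sums were 156 ± 15.9 FPKM in the knockout and 103 ± 16.2 FPKM in the wild type, a ratio of 1.51.

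The make-up of this pool differed as well. Igfbp7 was 65.4%, 58.3% and 63.0% of the summed FPKM in the knockout libraries, against 44.85% and 46.7% in the wild type libraries. Igfbp3 was 7.39%, 6.18% and 6.26% in the knockout libraries, against 20.4% and 25.5% in the wild type libraries. The shares of Igfbp4 (13.3% to 16.3% in the knockout, 15.9% to 20.4% in the wild type) and Igfbp5 (13.0% to 19.2% in the knockout, 11.9% to 14.35% in the wild type) overlapped between the genotypes. Shares of 1 sum are not independent of each other, so a larger share of Igfbp7 lowers the rest.

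The order of levels changed below Igfbp7. In the knockout libraries Igfbp4 and Igfbp5 came next with overlapping ranges, and Igfbp3 followed below both. In the wild type libraries Igfbp3 and Igfbp4 overlapped, and so did Igfbp4 and Igfbp5. The ratio of Igfbp5 to Igfbp3 in FPKM was 1.75, 3.11 and 2.08 in the knockout libraries, against 0.703 and 0.466 in the wild type libraries. In FPKM, Igfbp5 thus exceeded Igfbp3 in all 3 knockout libraries and in neither wild type library. In reads, which are not divided by gene length, Igfbp5 exceeded Igfbp3 in every library. Wild type 1 had 52 reads of Igfbp5 against 30 of Igfbp3, and wild type 2 had 31 against 27. The ratio of Igfbp4 to Igfbp3 was 1.80, 2.64 and 2.59 in the knockout libraries, against 1.00 and 0.622 in the wild type libraries, where wild type 1 listed both genes at 42.5 FPKM. These ratios were not tested. Below Igfbp3, Igfbp4, Igfbp5 and Igfbp7, Igf2r and Igf1 overlapped in both genotypes, and Igf1 was above Igf1r in every library.

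**Figure D4:**
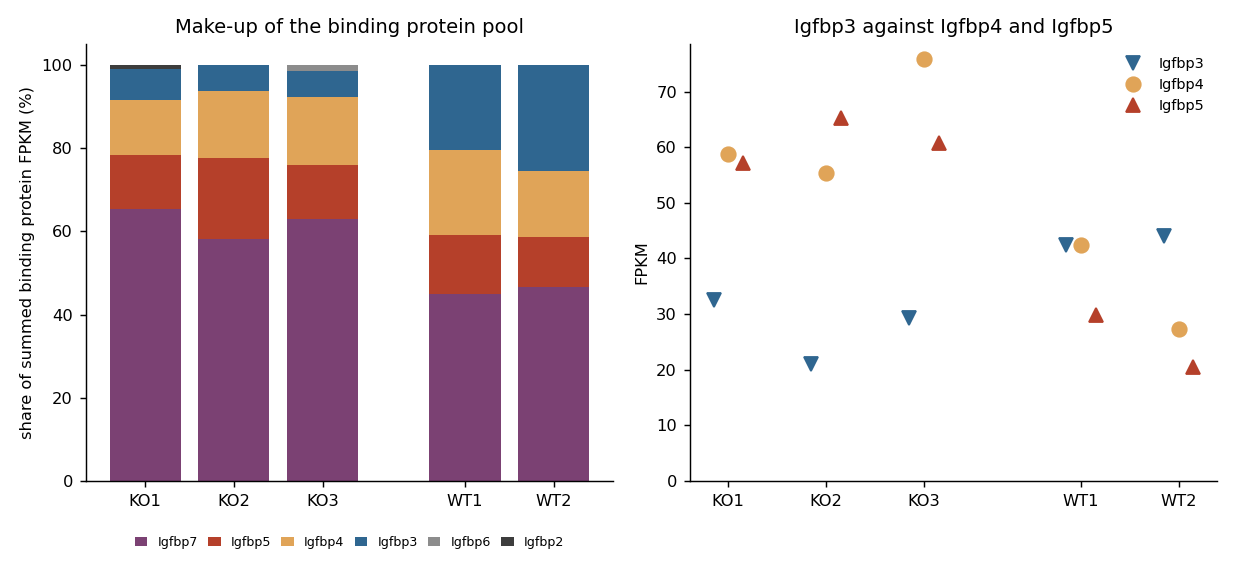
Left, share of each binding protein gene in the summed FPKM of Igfbp2 to Igfbp7 (stacked bars, percent) in knockout (KO) and wild type (WT) libraries. Right, FPKM of Igfbp3, Igfbp4 and Igfbp5 in the same libraries, with Igfbp3 lowest of the 3 in every knockout library and highest or level with Igfbp4 in the wild type libraries.

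Among the ligands, Igf1 (Entrez gene 16000, chromosome 10, 87858265 to 87937047) had 9.43, 8.45 and 9.73 FPKM in the knockout libraries, against 4.76 and 8.18 FPKM in the wild type libraries. Wild type 2 lay just under the lowest knockout library and wild type 1 well below it. Its change did not pass (log2 0.57, SE 0.39, adjusted p = 0.346), and wild type 1 decided its size: it was 0.20 without that library and 0.97 without wild type 2. Igf1 RNA is made by macrophages as well as by stromal cells.

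Igf2 (Entrez gene 16002, chromosome 7, 142650768 to 142666816), the growth factor of fetal life that is expressed from the paternal copy, was read in every knockout library and in neither wild type library. It had 1, 4 and 5 reads (0.98, 5.03 and 6.04 FPKM) in the knockout libraries, against 0 and 0 in the wild type libraries. In CPM it stood at 4.80, 19.02 and 20.2 in the knockout libraries, with a mean of 14.7, while a count of 0 allows up to 14.1 and 15.9 CPM in the wild type libraries (3 counts per library). The knockout mean lies between these limits for single libraries, so no fold is given. With reads pooled by group, 10 against 0, the exact binomial 95% interval of the ratio began at 1.35. That interval holds counting error only and leaves out the spread between libraries. Igf2 was too low for the fit on all genes. Exons of Igf2 share 3596 bases with Gm49394 on the same strand and 98 bases with Igf2os on the other, and the tables list neither.

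Summed, the binding proteins were far above the ligands in both genotypes. The summed binding protein FPKM was 42.4, 25.1 and 29.6 times the summed FPKM of Igf1 and Igf2 in the knockout libraries, against 43.75 and 21.1 times in the wild type libraries. The groups overlapped, with means of 32.4 ± 8.95 in the knockout (SD, n = 3) and 32.4 ± 16.0 in the wild type (n = 2), and the few ligand reads limit this ratio. Without Igfbp7 the ratio was 12.0 ± 2.30 in the knockout and 17.7 ± 9.12 in the wild type, and the groups again overlapped. Against Igf1r, the binding proteins were at 189, 95.2 and 92.7 times its FPKM in the knockout libraries, against 93.8 and 89.85 times in the wild type libraries, and knockout 1, with the lowest Igf1r of its group, stood apart.

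Igf1r (Entrez gene 16001, chromosome 7, 67952257 to 68233668), the signalling receptor, had 2.33, 3.56 and 5.04 FPKM in the knockout libraries, against 2.22 and 1.92 FPKM in the wild type libraries. Knockout 1 was barely above wild type 1, and the range of the 3 knockout libraries was wider than the difference between the group means. With 43 knockout and 14 wild type reads, its log2 fold change of 0.87 (SE 0.47, adjusted p = 0.210) did not pass. Leaving out knockout 2 or knockout 3 took the gene below the filter for testing.

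Igf2r (Entrez gene 16004, chromosome 17, 12682406 to 12769706) encodes the mannose 6-phosphate receptor, which clears IGF2 and carries acid hydrolases to lysosomes. It had 12.5, 9.56 and 6.78 FPKM in the knockout libraries, against 7.83 and 10.3 FPKM in the wild type libraries, so that the wild type values lay inside the knockout range. The log2 fold change was 0.10 (SE 0.32, adjusted p = 0.877), and it was -0.08 without knockout 1 and -0.10 without wild type 1.
The upstream stretches of Igf2r and of the scarcely read Igfbp2 are shown because theirs were the member windows that held the E-box CACGTG, which the capitals mark.
Igf2r (chr17:12769707-12769796, minus strand): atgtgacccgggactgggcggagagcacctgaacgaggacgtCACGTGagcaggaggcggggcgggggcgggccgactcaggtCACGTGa
Igfbp2 (chr1:72824320-72824369, plus strand): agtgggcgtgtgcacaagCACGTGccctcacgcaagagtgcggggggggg
The Igf2r stretch held 2 copies, and 2 or more were held by 0.93% of the windows of tested genes and 0.429% of all windows. The member with 2 E-boxes did not pass the test, and the 3 members that did pass had none in their windows. Sites outside these windows were not searched, and a link between E-boxes and changes was not tested.

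Of 79 further genes of the IGF axis in 8 lists, 69 were listed and 29 tested: 5 were higher in the knockout, 1 was lower and 23 did not pass, against 8.19% and 8.14% of all tested genes. Of the 12 proteases that cut binding proteins and their inhibitors, 4 were tested and 1 rose. This was Pappa, which encodes PAPP-A, the protease known for cutting IGFBP4 and IGFBP5. It had 8.54, 10.7 and 11.2 FPKM in the knockout libraries, against 3.02 and 3.13 FPKM in the wild type libraries. Its log2 fold change was 1.76 (SE 0.37, adjusted p = 3.56e-05), and the call held with each library left out. Pappa thus rose in the same libraries as its substrates Igfbp4 and Igfbp5. Stc1 and Stc2, the stanniocalcins that inhibit PAPP-A, were not tested: Stc1 had 12 reads in the knockout and 2 in the wild type group, and Stc2 had 4 and 2. Adam9, the tested gene of the highest FPKM in this list, did not pass (log2 fold change 0.24, adjusted p = 0.621).

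Below the receptor, 7 of 12 insulin receptor and adaptor genes were tested and 2 were higher. Irs1, the docking protein that passes the IGF1 signal to PI3K, had 14, 13 and 12 reads in the knockout libraries, against 5 and 3 reads in the wild type libraries. Its log2 fold change of 1.53 (SE 0.58, adjusted p = 0.0497) lost its call in all 12 alternatives that gave an adjusted p (up to 0.561), and 2822 of its exon bases lie opposite Gm9747. Grb10, an imprinted adaptor that dampens insulin and IGF1 receptor signalling, had 13.4, 15.4 and 14.1 FPKM in the knockout libraries, against 6.81 and 5.72 FPKM in the wild type libraries (log2 fold change 1.22, SE 0.42, adjusted p = 0.0263). Leaving out knockout 2 (log2 fold change 1.15) or knockout 3 (1.20) ended its call, as did leaving out either wild type library (1.38 without wild type 1, 1.06 without wild type 2). Rack1, a scaffold that is the highest of this list, did not pass (log2 fold change 0.40, adjusted p = 0.318).

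Of the 22 genes of the PI3K, AKT, mTOR and FOXO chain, 9 were tested and 1 was higher. Tsc2, which encodes tuberin, a brake on mTOR, had 94.7, 109 and 127 FPKM in the knockout libraries, against 61.9 and 56.1 FPKM in the wild type libraries (log2 fold change 0.94, SE 0.15, adjusted p = 7.02e-09). The end of Tsc2 shares 693 exon bases with Pkd1 on the other strand. As for Igfbp7 and Polr2b, these overlapping ends cannot be told apart without the strand setting. The part of this in the rise of Tsc2 was not tested. Akt1 and Foxo3 did not pass, with log2 fold changes of 0.31 and -0.47. Of 10 surface and matrix partners of binding proteins, 6 were tested and 1 was higher, Fn1, the matrix protein fibronectin, at 202, 173 and 176 FPKM in the knockout libraries, against 93.3 and 110 FPKM in the wild type libraries (log2 fold change 0.89, SE 0.12, adjusted p = 8.79e-12; 292 exon bases lie opposite Apol7d). The calls of Tsc2 and Fn1 held with each library left out.

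Among 7 genes that tag or sort lysosomal enzymes with mannose 6-phosphate, the pathway of Igf2r, M6pr alone was tested. It encodes the small mannose 6-phosphate receptor, and it was at 71.3, 65.6 and 44.8 FPKM in the knockout libraries, against 102 and 92.7 FPKM in the wild type libraries. It fell by 0.67 on the log2 scale (SE 0.23, adjusted p = 0.0290). Leaving out knockout 2 (-0.74) or knockout 3 (-0.50) ended its call, as did leaving out either wild type library (-0.60 without wild type 1, -0.76 without wild type 2). Of 6 genes of growth hormone input to Igf1, 2 were tested and neither passed with edgeR, also at an unadjusted p under 0.05 (Jak2, the one of higher FPKM: log2 fold change 0.61, adjusted p = 0.325). None of the 7 other ligand and carrier genes and none of the 3 IGF2 mRNA-binding protein genes had enough reads to test.

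Summed levels of stromal and macrophage markers differed between the genotypes, as those of the binding proteins did. The summed stromal markers were 2.57 times as high in the knockout (10900 ± 368 CPM, SD, n = 3) as in the wild type (4235 ± 23.4 CPM, n = 2), with 4 of the 10 tested genes higher and 0 lower. The summed binding proteins, at 1156 ± 115 CPM in the knockout and 564 ± 98.9 CPM in the wild type, had a ratio of 2.05. The summed macrophage markers had a ratio of 0.626 (10530 ± 553 CPM in the knockout, 16830 ± 551 CPM in the wild type), with 8 of 15 tested genes lower and 0 higher. Lyz2, at a mean of 6789 CPM in the knockout and 10770 CPM in the wild type, made up most of both macrophage sums. That ratio is thus mainly the ratio of Lyz2. Among the tested macrophage markers that did not pass, Mrc1 had a positive log2 fold change (0.18). The rest ranged from -1.25 (Cd163) to -0.40 (Ptprc). The 4 higher stromal genes were Col1a1, Col1a2 and Col3a1, which had the highest levels of the list, and Cxcl12, a chemokine of marrow stroma (log2 fold change 1.31). Mean CPM in the knockout and the wild type was 4882 and 1874 for Col3a1, 2671 and 935 for Col1a2, and 2008 and 652 for Col1a1. These collagen genes made up most of both stromal sums, so the ratio is mainly theirs. The 6 that did not pass had log2 fold changes of 1.01 (Dcn), 0.82 (Vcam1), 0.81 (Fap), 0.39 (Prrx1), 0.15 (Pdgfrb) and -0.34 (Pdgfra). Of the stromal markers too low to test, Twist1, Eng and Lepr had a higher mean CPM in the knockout, and Nt5e, Thy1 and Lum a lower one. The part of these markers in the change of each binding protein was not tested. Neutrophil markers summed to 4.75 to 12.1 CPM in the knockout and 14.1 to 15.9 CPM in the wild type libraries, with S100a9, Ly6g, Mpo, Elane and Ltf at 0. Erythroid markers were 1 of 5 listed, with at most 4.80 CPM in any library. Endothelial markers were at 128 to 178 CPM in the knockout and 165 to 197 CPM in the wild type libraries, with Vwf at 0. Markers of B, T and NK cells were at 28.5 to 40.5 CPM in the knockout and 32.9 to 42.5 CPM in the wild type libraries, with Cd3e and Cd3g at 0. Osteoclast markers summed to 146 to 211 CPM in the knockout and 303 to 423 CPM in the wild type libraries, with Calcr, Ocstamp and Dcstamp at 0. Megakaryocyte and mast cell markers summed to 207 to 239 CPM in the knockout and 340 to 371 CPM in the wild type libraries, with Itga2b and Mcpt4 at 0.

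**Figure D5:**
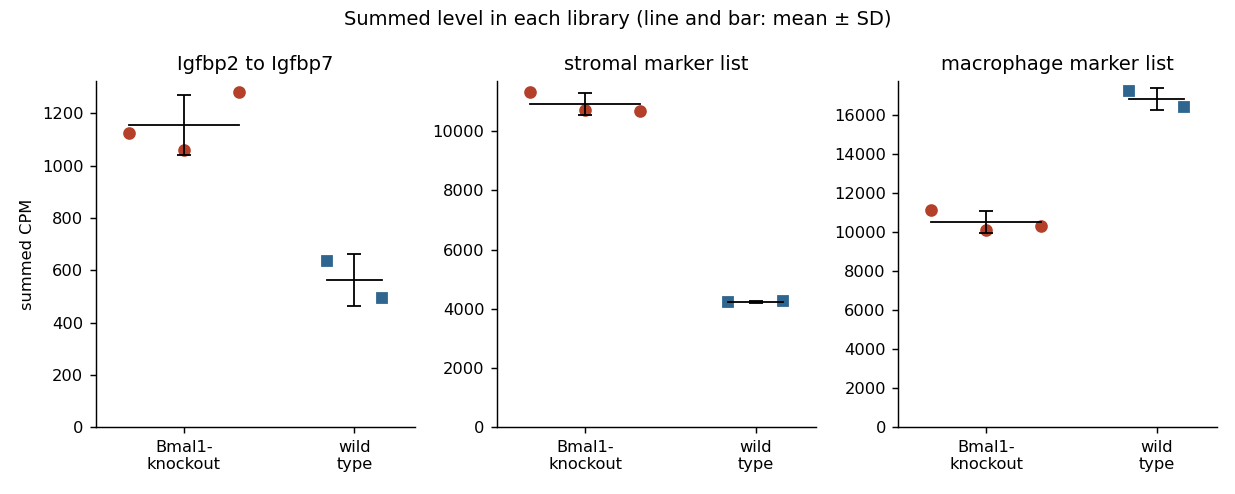
Summed CPM (vertical axis, from 0, a different scale in each panel) of Igfbp2 to Igfbp7, of the 16 stromal markers and of the 16 macrophage markers in the 3 Bmal1-knockout libraries (circles) and the 2 wild type libraries (squares), with mean and SD. The binding protein and stromal sums are higher in every knockout library, and the macrophage sum is lower in every knockout library.

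The genes whose pattern over the 5 libraries was most like that of a member were sought among 1489 genes of at least 100 CPM, by the root mean square distance of centred log2(CPM + 1) values. Nearest to Igfbp7 were Prss23 (0.104), Tsr2 (0.157) and Lox (0.190), which encodes the enzyme that cross-links collagen. Nearest to Igfbp3 were Prex1 (0.0476), Itgam (0.0552), the integrin chain of myeloid cells, and Emb (0.0821). Nearest to Igf1 were Pdha1 (0.115), Emp1 (0.131) and Vcl (0.139). The distance rests on 5 libraries of 2 genotypes and is given as a description.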

How the data were processed

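RNA-seq of 5 libraries was used, 3 of Bmal1-knockout and 2 of wild type cells. Per the file headers, each library has its own deposited table of expected counts, FPKM and gene length in bases. Per the submitters' processing notes, the tools were RSEM, Bowtie2, StringTie and HISAT2 on mm10, without versions or roles. A gene missing from a table was taken as 0. Rows with no gene symbol (at most 0.0034% of counts) were left out. All 40 member counts above 0 were whole within 0.005.

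Expected counts were rounded and tested in R 4.3.3 by edgeR 4.0.16 (genes kept by filterByExpr at a minimum count of 10 and total of 15, TMM scaling, robust quasi-likelihood fit on genotype, Benjamini-Hochberg adjustment at 0.05). CPM uses the TMM-scaled totals of tested genes. Standard errors come from the quasi-likelihood F. On simulated data with 3631 tested genes, 85.0% of 2-fold and 100% of 4-fold changes (100 genes each, with a mean of 30 or more reads a library) were recovered. The spread between simulated libraries was set in advance. The rates do not cover genes with fewer reads, such as Igf1, Igf1r, Igf2r, Igfbp3, Pappa, Irs1 and Grb10. DESeq2 1.42.0 and limma 3.58.1 (voom, and trend on log2(FPKM + 1) and log2(FPKM + 0.1)) were alternatives, as were RLE and upper-quartile scaling, no filter, a replicate block and leaving out each library. Fold changes from FPKM understate low genes. Sums and ratios within the family are descriptions with no test. Counts of replicates differed by more than sampling noise, so each library counts once.

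The members and lists were chosen with earlier results of these data known. Named outside the members were genes of 8 pathway lists that passed the test, the tested gene of the highest FPKM of each list, and the genes nearest in pattern to Igf1, Igfbp7 and Igfbp3. Polr2b, Polr2a, Airn, H19, Stc1, Stc2, Akt1, Foxo3 and the stromal and macrophage markers given with a fold change were named after their values were seen. Coordinates and sequences are RefSeq's of GRCm38.p6, and exon overlaps are from GENCODE M21.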

Additional observations from a re-analysis of the deposited data

How the results depend on the processing

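The sign of each tested member held in every alternative that tested it, except Igf2r, which turned to -0.08 and -0.10 without knockout 1 and without wild type 1 (range -0.10 to 0.30 with each library left out). Of the 95 member values under alternatives, 83 kept their side of the threshold, 10 lost a call and 2 changed sign. Igfbp7 kept its call in all 14, Igfbp5 in 13 (not with log2(FPKM + 1) and no filter on low values, adjusted p = 0.0784) and Igfbp4 in 5. The count of higher members was 2 to 3 with each library left out and 1 with log2(FPKM + 1) and no filter, and no member was lower in any. Over all genes, 304 higher and 302 lower in the main test became 149 and 131 with DESeq2, 171 and 171 with log2(FPKM + 1), 157 and 157 with log2(FPKM + 0.1), and 63 and 49 with no filter on FPKM. With each library left out they ranged from 144 to 323 higher and from 146 to 287 lower, and were fewest without a wild type library, where the lone wild type library is assumed to vary like the others. With the replicate block, 2 members, 229 higher and 212 lower genes passed. Libraries with the same number did not deviate together (correlations -0.0145 and 0.0317). The deviations of the 2 wild type libraries mirror each other, so this check cannot tell whether the numbers pair the samples. The log2 difference of the summed binding proteins was 1.12, 0.98 to 1.26 with each library left out, 1.04 in CPM and 0.59 without Igfbp7, an alternative chosen after seeing the data. That of the ratio to ligands was 0.06, -0.47 to 0.58 with each library left out, and -0.47 without Igfbp7. Calls on members with under 50 reads are limited by depth.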

Other observations

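The imprinted neighbours of the family were read in both genotypes. H19, the maternally expressed RNA beside Igf2, had 4, 8 and 6 reads in the knockout libraries, against 6 and 9 reads in the wild type libraries. H19 was too low to test. Airn, the RNA that runs against Igf2r and silences the paternal copy of that gene, was listed at 93.4, 88.1 and 98.5 FPKM in the knockout libraries and at 126 and 131 FPKM in the wild type libraries. These levels are far above those of Igf2r, at 6.78 to 12.5 FPKM in the knockout and 7.83 to 10.3 FPKM in the wild type libraries. The log2 fold change of Airn was -0.42 (SE 0.16, adjusted p = 0.0454), a call lost in 11 of 14 alternatives, with an adjusted p of up to 0.338. No exon bases are shared by Airn and Igf2r in GENCODE M21, and the Airn expected counts were not whole.

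Polr2b stood apart from the other genes of the RNA polymerase II family. It had 199, 251 and 273 reads in the knockout libraries and 70 and 67 reads in the wild type libraries. Each of the 12 other listed Polr2 genes had at most 27 reads in any library. Of the 2 others tested, Polr2a was at a log2 fold change of -0.09 and Polr2c at 0.55 (SE 0.39, adjusted p = 0.367). Polr2b had 2.40, 4.18 and 2.55 reads for each read of Igfbp7 in the knockout libraries, against 2.50 and 3.19 in the wild type libraries, so the ratio overlapped between the genotypes while both genes were higher in the knockout.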
